A study of Mus musculus with 3 samples.

Results

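The POU genes encode a family of homeobox transcription factors, and 9 of them, Pou2f1, Pou2f2, Pou3f1, Pou3f2, Pou3f3, Pou4f1, Pou4f2, Pou4f3 and Pou6f1, were examined for accessible chromatin in dopaminergic neurons (DNs) of the mouse midbrain. They were 9 of the 21755 protein-coding genes of the GENCODE M21 annotation of mm10, and they were chosen by name, with earlier results of these data known. A peak was assigned to a gene when it overlapped the gene body, from the first to the last annotated base, or lay within 50 kb of either end. By this rule, 61 of the 55326 accessible peaks of the DN list fell at 6 of the 9 genes, and none fell at Pou4f2, Pou4f3 or Pou6f1. Of all protein-coding genes, 83.2% had a peak by the same rule. The windows held 29 peaks at Pou2f2, 11 at Pou3f1, 9 at Pou3f2, 7 at Pou3f3, 4 at Pou2f1 and 1 at Pou4f1.

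The peaks came from single-nucleus ATAC-seq, in which a transposase tags open DNA inside isolated nuclei. The nuclei were taken from the ventral tegmental area (VTA) of male C57Bl/6Nl mice, aged 7 weeks in replicate 1 and 9 weeks in replicate 2, and the DN group was a cluster that the authors picked from whole VTA tissue by marker genes. A bulk library of mouse embryonic stem cells belongs to the same series and was not analysed here. Both DN replicates were merged in 1 list of peak positions without heights, scores or reads, so the list does not give the reads behind a peak, no value had a spread between replicates and no test between groups was made. Intervals are 95% exact binomial (Clopper-Pearson) intervals and hold counting error alone. A gene without a peak is a gene at which none was called, which does not show closed chromatin.

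POU proteins bind DNA with a bipartite domain, in which a POU-specific part and a homeodomain, joined by a flexible linker, contact neighbouring stretches of the double helix. Their classic target is the octamer, first known from immunoglobulin and histone gene promoters, and class III and class IV proteins also use spaced or AT-rich variants of it. In the nervous system, class III factors are known for their work in neural progenitors and in upper-layer cortical neurons, and class IV factors mark sensory neurons, retinal ganglion cells and a few brain nuclei such as the medial habenula and the red nucleus. Dopaminergic neurons of the midbrain are instead usually defined by forkhead, LIM homeobox and nuclear receptor factors.

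The label of the cells was checked against genes for which DNs are known. All 8 dopaminergic markers examined (Th, Slc6a3, Slc18a2, Ddc, Foxa2, Lmx1b, Nr4a2 and Pitx3) had a peak within 1 kb of a transcription start site (TSS), with 8 to 46 peaks in the gene body and 50 kb flanks. Of 3 genes of the oligodendrocyte lineage, Pdgfra had a peak within 1 kb of a TSS, Sox10 and Olig2 did not, and Nanog, a gene of embryonic stem cells, had none either. Both genes of pyramidal neurons, Wfs1 and Camk2a, had such a peak. Of all protein-coding genes, 56.9% had such a peak, and the median was 4 peaks in the gene body and flanks. A call at a single gene therefore says little about the cell type. Because Th and other markers served the authors to pick the cluster, their peaks are no separate evidence for the label.

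The promoters of 5 members are shown because they separate the genes with and without a called peak at the start site. Each run is 200 bases long, ends 1 base before the RefSeq start, and is written 5′ to 3′ on the strand of the gene from GRCm38.p6, with every CpG in capitals. Pou3f2 (chr4:22488367-22488566, minus strand), Pou3f3 (chr1:42695568-42695767, plus strand) and Pou4f1 (chr14:104468000-104468199, minus strand) had a peak over this stretch. Pou4f2 (chr8:78436648-78436847, minus strand) and Pou6f1 (chr15:100599985-100600184, minus strand) had none.
Pou3f2: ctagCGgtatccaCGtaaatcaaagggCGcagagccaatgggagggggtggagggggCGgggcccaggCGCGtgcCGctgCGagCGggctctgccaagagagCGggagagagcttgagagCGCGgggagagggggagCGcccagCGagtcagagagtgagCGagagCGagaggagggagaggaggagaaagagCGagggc
Pou3f3: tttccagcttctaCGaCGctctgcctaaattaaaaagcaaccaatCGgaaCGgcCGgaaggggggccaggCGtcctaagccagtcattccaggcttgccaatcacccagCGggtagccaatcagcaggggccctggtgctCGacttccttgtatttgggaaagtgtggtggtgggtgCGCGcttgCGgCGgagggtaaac
Pou4f1: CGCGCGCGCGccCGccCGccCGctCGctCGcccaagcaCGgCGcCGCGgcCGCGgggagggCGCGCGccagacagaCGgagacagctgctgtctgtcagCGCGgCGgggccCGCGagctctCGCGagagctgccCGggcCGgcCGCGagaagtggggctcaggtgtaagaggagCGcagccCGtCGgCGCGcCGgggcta
Pou4f2: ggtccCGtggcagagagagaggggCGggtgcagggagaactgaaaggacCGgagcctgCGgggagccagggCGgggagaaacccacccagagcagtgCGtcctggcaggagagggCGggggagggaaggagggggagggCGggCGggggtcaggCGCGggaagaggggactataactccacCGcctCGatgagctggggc
Pou6f1: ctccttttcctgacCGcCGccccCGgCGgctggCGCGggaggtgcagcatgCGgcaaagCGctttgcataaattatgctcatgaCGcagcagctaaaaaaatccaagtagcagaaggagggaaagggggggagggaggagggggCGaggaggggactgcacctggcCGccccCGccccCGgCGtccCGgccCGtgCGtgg
The run of Pou4f1 held 37 CpGs at a GC content of 79.5%. Pou3f2 and Pou6f1 had 17 CpGs each, at 68% and 67% GC, and differed in that a peak was called at Pou3f2 and not at Pou6f1. Pou4f2 held 13 CpGs and Pou3f3 held 12, the former without and the latter with a peak. Among these 5 runs the number of CpGs therefore did not separate the open from the uncalled starts. The member runs not shown went the other way: the outer start of Pou2f1 had 26 CpGs and a peak. Without a peak were Pou2f2, with 10 CpGs, and the inner starts of Pou2f1, with 2 and 1.

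The class III genes Pou3f1, Pou3f2 and Pou3f3 all had peaks, with 27 between them and 7 to 11 each. All 3 consist of a single exon, and each had at least 1 peak in its body and within 1 kb of its TSS. Among 21755 protein-coding genes, the median was 4 peaks in the gene body and 50 kb flanks, with quartiles of 2 and 9. To compare genes of unlike length, peaks were also counted within 50 kb on either side of the outer TSS, the most upstream annotated start, where the median of all genes was 3. By this count Pou3f1 had 10 peaks, Pou3f2 had 9 and Pou3f3 had 7, and 83.9%, 81.3% and 74.2% of all genes had fewer.

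Pou3f2, a factor of neural progenitors and hypothalamic neurons, had all 9 of its peaks nearest to its own TSS (ENSMUSG00000095139, chr4:22482780-22488366, minus strand). Of its 9 peaks, 6 formed a run of 4.55 kb (chr4:22487711-22492264), in which no gap to the next peak exceeded 2 kb. Their centres lay from 3.65 kb upstream to 0.406 kb downstream of the TSS. The most downstream peak of the run placed 421 of its 500 bp in the coding sequence, and the next covered the TSS, with its centre 109 bp upstream. Outside the run, 1 peak lay 10.2 kb upstream, and the other two lay 10.4 and 11.2 kb downstream, past the end of the gene. The locus stood alone, since no further peak was called for 538904 bp on the upstream side and for 119104 bp on the downstream side. The long noncoding gene Gm30731 starts 3 bp from the centre of the peak at 2.18 kb upstream, and 3 peaks of the run overlap it, so peaks of Pou3f2 and Gm30731 cannot be told apart there.

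Pou3f3, which acts with Pou3f2 in cortical neurogenesis and also in the kidney, had a similar layout (ENSMUSG00000045515, chr1:42695768-42703176, plus strand). A run of 4 peaks spanned 4.06 kb (chr1:42694121-42698177), from 1.4 kb upstream to 2.16 kb downstream of the TSS. The peak over the start had its centre 70 bp upstream and 773 bp from the start of the noncoding gene AC122898.1, which overlaps Pou3f3 on the same strand. The peak at 2159 bp downstream lay wholly inside the coding sequence, over 500 of 500 bp, with a GC content of 73.8%. A pair of peaks at 9.38 and 10.8 kb upstream fell in Pantr1, a long noncoding gene that is transcribed away from Pou3f3, and a last peak lay 19 kb downstream. The peak-free gaps beside the locus measured 358545 bp upstream and 135924 bp downstream.

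Pou3f1, known for its part in myelination by Schwann cells, differed from both in where its peaks lay (ENSMUSG00000090125, chr4:124656807-124660655, plus strand). None of its 11 peaks was upstream, and no peak was called for 81.3 kb before the first. That peak was centred 805 bp downstream of the TSS, wholly in the exon and with 156 bp in the coding sequence, and had the highest GC content of all 61 peaks, 79.8%. The antisense gene Gm2164 overlaps Pou3f1 and starts 443 bp from the centre of this peak, closer than Pou3f1 itself, so the peak cannot be assigned to either start. The main group was a run of 6 peaks over 4.46 kb (chr4:124672165-124676625), between 15.6 and 19.6 kb downstream of the TSS and at least 11.5 kb beyond the end of the gene. A further 2 peaks at 22.6 and 23.4 kb lay in an intron of Utp11, a gene for a ribosome assembly factor, and 1 lay 62 bp from the start of Utp11. By distance, the nearest protein-coding TSS was that of Pou3f1 for 5 of the 11 peaks and that of Utp11 for another 5. Which gene the downstream run acts on was not measured.

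**Figure D1:**
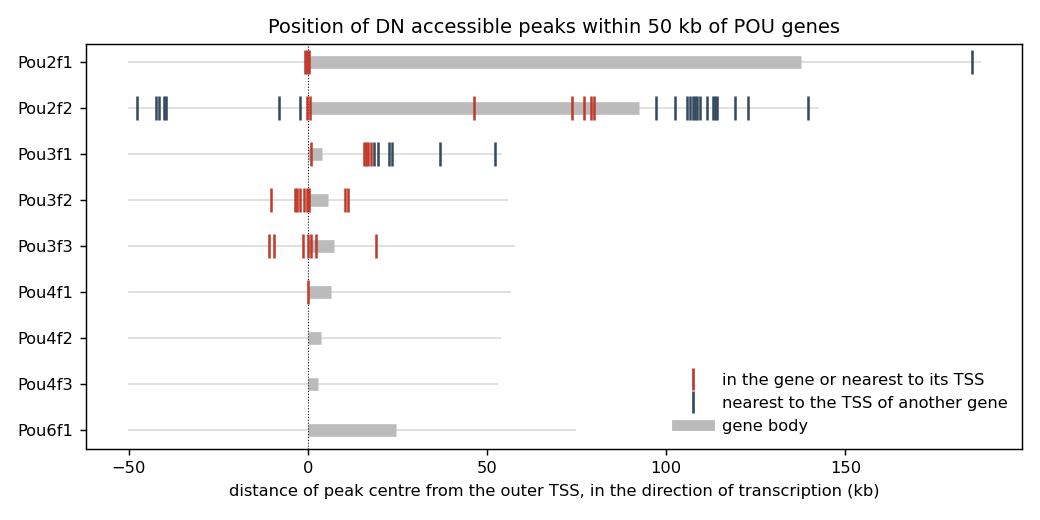
Position of each of the 61 DN accessible peaks (vertical marks, at the peak centre) relative to the outer TSS of the 9 POU genes, in kb along the direction of transcription, with gene bodies as grey bars and the 50 kb flanks as thin lines. Red marks lie in the gene or have it as the gene with the nearest TSS, dark marks are nearest to another gene. Peaks of Pou3f2 and Pou3f3 sit around the start, 10 of the 11 of Pou3f1 lie past the gene, and most of those at Pou2f2 belong by distance to neighbouring genes.

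The class II genes Pou2f1 and Pou2f2 were the long members, at 138 and 92.4 kb, and their peaks followed opposite patterns. Pou2f1, a factor found in most cell types that acts on histone and housekeeping genes, had nearly all of its peaks at the start, and Pou2f2, known best from B cells, had most of its peaks outside the gene. The 4 peaks in the window of Pou2f1 equalled the median of all genes, and 98% of all genes had fewer than the 29 of Pou2f2. That count grows with gene length, and within 50 kb of the outer TSS Pou2f2 had 10 peaks, where 83.9% of all genes had fewer.

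At Pou2f1 (ENSMUSG00000026565, chr1:165865154-166002678, minus strand), 3 of the 4 peaks stood in a run of 1.66 kb at the outer TSS (chr1:166002009-166003666), centred 420 bp downstream, 126 bp upstream and 738 bp upstream. These peaks lay within 1 kb of 5 of the 7 start sites that the basic annotation gives for the gene. From the first of them, no peak was called for 184337 bp through the rest of the gene body, and none for 149635 bp upstream of the run. The fourth peak, 185 kb downstream of the TSS, lay in an intron of Cd247, a T cell receptor subunit gene that overlaps the end of Pou2f1. The starts of Pou2f1 that lie farther in had no peak: their RefSeq promoter windows had GC contents of 28.7% and 38%, against 69.7% at the outer start. The noncoding gene Gm26665 starts 156 bp from the centre of the middle peak and runs the other way, so the peaks of both starts overlap.

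At Pou2f2 (ENSMUSG00000008496, chr7:25087344-25179726, minus strand), only 7 of the 29 peaks lay in the gene body, with 7 upstream and 15 downstream. The 3 start sites of the basic annotation stand close together and shared 1 peak, centred 770 bp away. Another pair of peaks lay 695 bp downstream and 151 bp upstream of the outer end of the gene, where the full annotation places the start of a transcript with a retained intron. The remaining 4 had their centres in introns, with 92 bp of 1 of them in the coding sequence, and lay between 73.8 and 79.9 kb downstream of that end. By distance to the TSSs of the basic annotation, 27 of the 29 peaks were nearest to another protein-coding gene: 13 to Grik5, a kainate receptor subunit gene, 6 to Dedd2, 5 to Zfp574 and 3 to Zfp526. Within 1 kb of the TSS of such a neighbour lay 8 peaks, and the antisense gene 4933430L12Rik, which shares the start region of Dedd2, starts 48 bp from the centre of 1 of them. With all annotated transcripts the number nearest to Pou2f2 itself was 9 in place of 2. The largest run, 10 peaks over 8.89 kb, stood at Grik5, from 106 to 114 kb downstream of the outer end of Pou2f2. The 29 peaks are thus a count for a window that Pou2f2 shares with these neighbours.

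**Figure D2:**
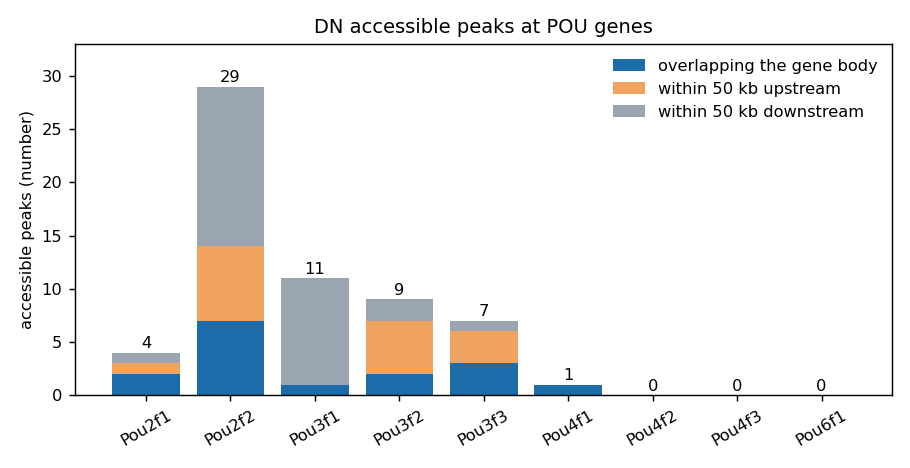
Number of DN accessible peaks at each POU gene, stacked by place: overlapping the gene body, within 50 kb upstream, or within 50 kb downstream. The 29 peaks of Pou2f2 are mostly in the flanks, the 10 flanking peaks of Pou3f1 are all downstream, and 3 genes have no peak.

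The class IV genes had 1 peak between them. Pou4f1, a factor of sensory neurons, the medial habenula and the red nucleus (ENSMUSG00000048349, chr14:104461676-104467999, minus strand), had a single peak (chr14:104467698-104468197). It covered the TSS, with its centre 52 bp downstream, and had a GC content of 74.4%. The next peaks lay 54.2 kb upstream and 422 kb downstream of the gene. With 1 peak within 50 kb of its TSS, Pou4f1 had more than 18.9% of all genes and fewer than 69%.

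Pou4f2, a factor of retinal ganglion cells (ENSMUSG00000031688, chr8:78433010-78436645, minus strand), had no peak in its window. The nearest were 71.8 kb upstream and 413 kb downstream, in a stretch of 488 kb without a peak. Pou4f3, a factor of the hair cells of the inner ear (ENSMUSG00000024497, chr18:42394539-42397249, plus strand), had none either, and its nearest peaks lay 119 kb upstream and 114 kb downstream. Of all genes, 18.9% likewise had no peak within 50 kb of the outer TSS.

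Pou6f1, the class VI member, a factor of brain and other tissues (ENSMUSG00000009739, chr15:100575318-100599984, minus strand), had a GC- and CpG-rich RefSeq promoter and no peak, alone among the 7 members with an entry in the promoter table. The nearest peaks lay 157 kb upstream and 79.8 kb downstream. Its 3 basic start sites and its whole 24.7 kb body were without a called peak. The stretch of 262 kb around it that had no peak also held other genes with promoters of this kind, so the absence of peaks was not particular to Pou6f1.

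**Figure D3:**
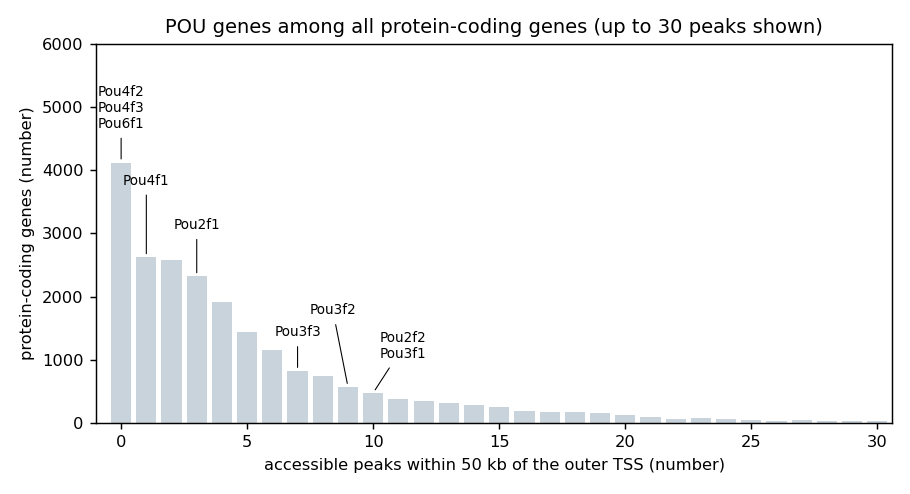
Number of protein-coding genes (vertical axis) by the number of DN accessible peaks within 50 kb of the outer TSS (horizontal axis, up to 30 shown), with the POU genes marked at their counts. Pou2f2 and Pou3f1 stand at 10, Pou3f2 at 9 and Pou3f3 at 7, above the median of 3, Pou2f1 stands at 3, Pou4f1 at 1 and the other 3 genes at 0.

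Over the family, 6 of the 9 members (66.7%) had a peak in the gene body, against 63.8% of all protein-coding genes. The same 6 of 9 had a peak within 1 kb of a TSS, against 56.9% of all genes, and in the gene body or 50 kb flanks, against 83.2%. The members as a family were therefore near the background. Among these 9 genes the calls split between the classes, 5 of 5 genes of classes II and III and 1 of 4 of classes IV and VI. For class II the split did not hold beyond the members, since Pou2f3 had no peak in its body or within 1 kb of a TSS. Pou6f1, counted among the 4, lay in a long stretch without peaks that also held other genes. The counts within 1 kb depended on the distance used for Pou2f2 and Pou3f1, whose nearest peaks were centred 770 and 805 bp from a start of the basic annotation. Within 500 bp of such a start, 4 members had a peak, and the share of all genes at that distance was not counted. At Pou2f2 a peak was centred 151 bp from its outer TSS, which is in the full annotation alone.

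A further 5 POU genes (Pou1f1, Pou2f3, Pou3f4, Pou5f1 and Pou5f2) had 11 peaks in their windows, from 0 to 4 each. A peak in the body and within 1 kb of a TSS was called at 1 of them, Pou3f4, the class III gene on the X chromosome, which had 2 peaks in its body. All 4 class III genes of the mouse thus had a peak within 1 kb of the start, against 56.9% of all genes, and Pou3f1 had none within 500 bp and shares its peak with Gm2164. Pou5f1, the pluripotency factor, had no peak in its body or within 1 kb of a TSS, and 4 in its flanks. Within 50 kb of the outer TSS, the median of these 5 genes was 2 peaks, against 3 for the 9 members.

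Of 6 genes whose products work with POU proteins, 3 had a peak within 1 kb of a TSS, near the 56.9% of all genes. Myt1l, used with Pou3f2 in the conversion of fibroblasts to neurons, had 53 peaks in its window, of which 46 were in the gene body. Myt1l spans 395 kb, so its count is not comparable with those of the short genes. Sox11, a neuronal SOX factor, had 7, and Hcfc1, a coregulator that Pou2f1 joins on viral promoters, had 6. Sox2, the partner of class III and class V proteins, and Pou2af1, the B cell coactivator of Pou2f1 and Pou2f2, had 1 each in the flanks, and Isl1, a partner of class IV proteins in sensory neurons, had none.

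A list of 9 factors of midbrain dopaminergic neurons (Foxa1, Foxa2, Lmx1a, Lmx1b, Nr4a2, Pitx3, En1, En2 and Otx2) had a peak in the body in 9 of 9, against 63.8% of all genes, and within 1 kb of a TSS in 9 of 9, against 56.9%, and a median of 9 peaks within 50 kb of the outer TSS, with a range of 2 to 17. Some of these genes are markers of the kind by which the cluster was picked. A list of 10 LIM homeobox genes of other neurons (Lhx1, Lhx2, Lhx3, Lhx4, Lhx5, Lhx6, Lhx8, Lhx9, Isl1 and Isl2) had a peak within 1 kb of a TSS in 0 of 10, where all genes had 56.9%, and a median of 1 within 50 kb, with a range of 0 to 4. The values of Pou3f1, Pou3f2 and Pou3f3, from 7 to 10, and those of Pou2f2 (10) and Pou2f1 (3) lay inside the range of the dopaminergic factors. All of them except that of Pou2f1 were above the range of the LIM genes. Both ranges are wide: of all genes, 31% had fewer than 2 peaks, 5.04% had more than 17 and 37.7% had more than 4. The value of Pou3f1 rested on its far downstream peaks, since with flanks of 10 kb in place of 50 kb Pou3f1 had 1 peak in place of 11, while Pou3f2 still had 9 and Pou3f3 had 5. The values of the class IV genes and Pou6f1, 0 and 1, lay inside the range of the LIM genes and below that of the dopaminergic factors. With 1 pooled list, these differences have no error over replicates.

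**Figure D4:**
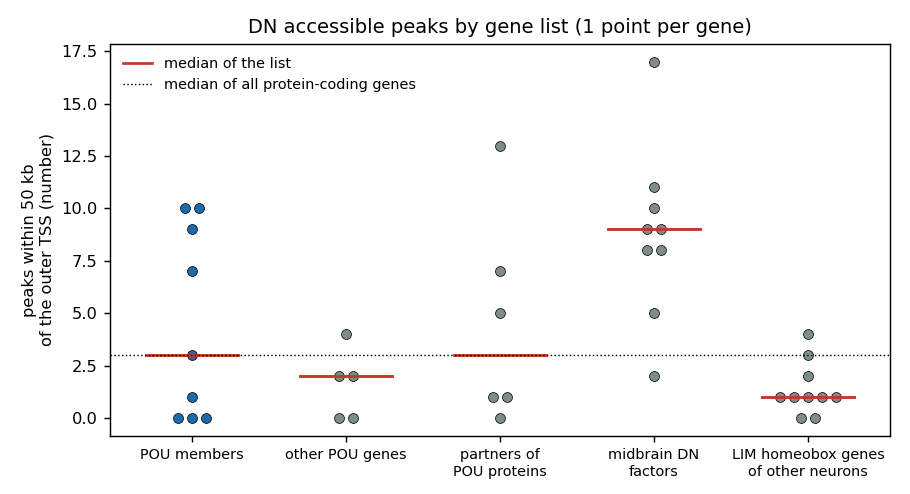
Number of DN accessible peaks within 50 kb of the outer TSS for each gene (1 point per gene) of 5 lists, with the median of each list as a red line and the median of all protein-coding genes, 3, as a dotted line. POU members spread from 0 to 10, the dopaminergic factors from 2 to 17, and the LIM homeobox genes from 0 to 4. Isl1 is in both the partner list and the LIM list.

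The 61 peaks of the POU genes were placed by their centres. Within 1 kb of the TSS of any protein-coding gene lay 19 (31.1%, interval 19.9% to 44.3%), against 30.1% of all peaks, which is inside the interval. Introns held 14 (23%, 13.2% to 35.5%), against 36.3% of all peaks, and intergenic positions 23 (37.7%, 25.6% to 51%), against 27.8%. Exons farther from a start held 5 (8.2%, 2.72% to 18.1%), against 5.74%. Of the 23 intergenic peaks, 7 belonged to Pou3f1, 7 to Pou3f2, 4 to Pou3f3 and 5 to Pou2f2, and the 2 peaks at the outer end of Pou2f2 were among them because the basic annotation has no transcript there. Peaks of 1 locus are not independent, so the intervals are too narrow for a comparison between loci.

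Peaks at the POU genes stood close together. A neighbouring peak lay within 2 kb of 46 of the 61 (75.4%, interval 62.7% to 85.5%), against 45.1% of all peaks. The run at Grik5 in the window of Pou2f2 gave 10 of these, and the runs of Pou3f1, Pou3f2 and Pou3f3 with 6, 6 and 4 peaks gave others. Because a run raises the count of each of its peaks, this share describes these 6 loci and is not a sample of independent peaks.

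The peaks had a mean GC content of 57.9% (SD 7.93, 61 peaks), against 53.3% (SD 9.19) over all 55326. Near starts the values were close, 64.5% (SD 7.21) for the 19 peaks of POU windows and 61.9% (SD 8.38) for all peaks of this kind, with median observed to expected CpG ratios of 0.758 and 0.754. Among peaks outside basic transcripts of protein-coding genes and farther than 1 kb from their starts, which are those counted as intergenic, the values lay farther apart: the 23 peaks of POU windows had a mean of 56.5% (SD 5.95) and a median CpG ratio of 0.557, against 48.7% (SD 6.75) and 0.251 for all intergenic peaks. These 23 include the 2 peaks at the outer end of Pou2f2 and peaks that overlap the noncoding genes Gm30731 and Pantr1. By gene, the means ran from 55.6% at Pou3f1 and 56.2% at Pou2f2 to 58.7% at Pou3f2, 61.1% at Pou3f3, 64.3% at Pou2f1 and 74.4% for the single peak of Pou4f1. The spread among the peaks of a gene was 6.42 to 10 percentage points (SD), and whether the means of the genes differ was not tested.

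Promoter composition was compared with peaks over 20061 RefSeq windows, each from 250 bases before to 50 after a start. A peak overlapped 51.9% of all windows, 84.9% of the 8558 with a GC content of at least 55% and a CpG ratio of at least 0.6, and 27.4% of the others. The table matched 7 of the 9 members with 9 windows, and Pou3f1 and Pou4f3 had no entry. Of the 5 rich windows, those of Pou2f1 (GC 69.7%, CpG ratio 1.01), Pou3f2 (67.7%, 0.824), Pou3f3 (60.3%, 0.699) and Pou4f1 (78.3%, 1.24) had a peak, and that of Pou6f1 (70.3%, 0.702) had none. The 4 other windows, the inner starts of Pou2f1, that of Pou2f2 (64%, 0.424) and that of Pou4f2 (69.7%, 0.563), had no peak. Pou4f2 and the outer start of Pou2f1 had the same GC content and differed in the CpG ratio, and the ratio of Pou4f2 was just under the limit for a rich window.

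**Figure D5:**
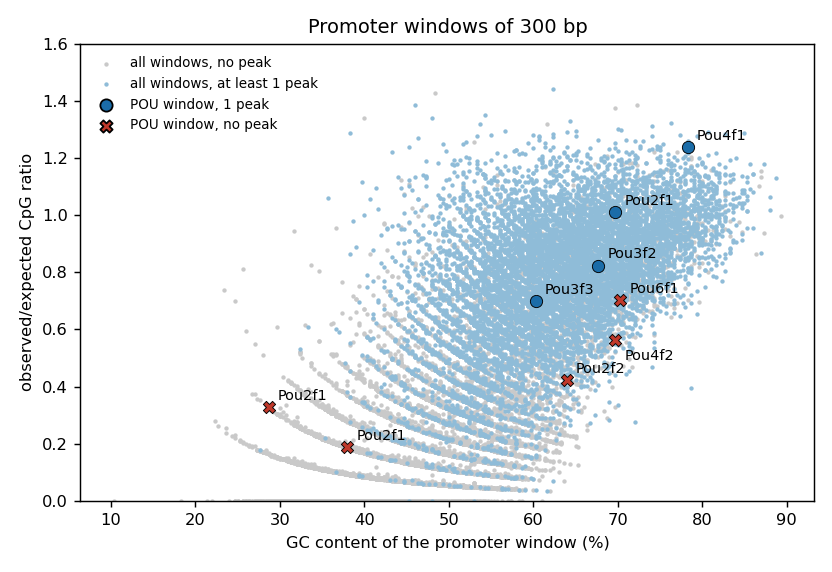
GC content (horizontal axis, %) and observed to expected CpG ratio (vertical axis) of RefSeq promoter windows of 300 bp, as small points for all windows with and without a DN accessible peak and as large symbols for the windows of POU genes, circles with a peak and crosses without. Pou6f1, at 70.3% and 0.702, is a cross among windows that mostly have a peak, and the inner windows of Pou2f1 lie among windows that mostly have none.

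Short words recognised by POU and other homeobox or forkhead proteins were searched on both strands of the peaks. The octamer ATGCAAAT was in 1 of the 61 (1.64%, interval 0.0415% to 8.8%), against 2.62% of all peaks and 1.56% of promoter windows. The spaced POU word CATNNTAAT was in 3 (4.92%, 1.03% to 13.7%), against 3.77% and 1.96%. The class IV word ATAATTAAT was in 0, for which the interval reaches 5.87%, against 0.32% and 0.224%. The forkhead word TGTTTAC was in 5 (8.2%, 2.72% to 18.1%), against 7.22% and 2.97%, and the homeobox core TAATTA, which the class IV word contains and which reads alike on both strands, was also in 5, against 7.27% and 4.39%. Each share of all peaks lay inside the interval of the POU peaks, so no difference was detectable with 61 peaks. Promoter windows are shorter than peaks and had a higher median GC content, 57% against 52% over all peaks, so their shares are not directly comparable.

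All matches to the octamer and the spaced POU word are shown, because these are words of POU proteins in peaks assigned to POU genes, together with 1 of the 5 forkhead matches, the 1 at a start site. Each has 15 bases on either side where the peak reaches that far. They are written on the plus strand of mm10 with the match in capitals. The octamer lay at chr7:25057214-25057221, in a peak inside Grik5 at 123 kb from the outer end of Pou2f2. The spaced word lay in an intron of Pou2f2 (chr7:25102427-25102435), 3.86 kb upstream of the TSS of Pou3f2 (chr4:22492226-22492234), and in the downstream run of Pou3f1 (chr4:124672430-124672438). A forkhead word lay across the TSS of Pou3f3 (chr1:42695762-42695768), where its last base is the first base of the gene.
Octamer, Grik5: gaaaagtgtccctgaATTTGCATgtcact
Spaced POU, Pou2f2: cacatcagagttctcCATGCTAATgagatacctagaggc
Spaced POU, Pou3f2: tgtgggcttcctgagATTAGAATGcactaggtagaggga
Spaced POU, Pou3f1: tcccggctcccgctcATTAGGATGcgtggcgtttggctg
Forkhead, Pou3f3: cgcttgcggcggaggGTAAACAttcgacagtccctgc
The match at Pou3f1 is in the first of the 6 peaks of its run, and the match at Pou3f2 is in the last peak of its run on the upstream side. Binding was not measured, and a match of these letters is not a site.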

How the data were processed

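Accessible peaks of DNs were analysed. Per the paper's methods and the labels, the authors sorted nuclei through a gate against doublets, mapped single-nucleus ATAC-seq reads to mm10 with cellranger-atac 1.2.0, removed further doublets and clustered nuclei of both VTA replicates with ArchR 0.9.1, took the cluster with high scores of DN markers and merged peaks of pseudobulk replicates into 1 reproducible set. The paper also names a filter on the share of nuclei with a peak, and whether it was applied to the deposited list is not given in the sources used here. The deposited values are positions. The list has 55326 peaks of 500 bp on 20 chromosomes.

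Starts were read as counted from 0 and are printed counted from 1. Peaks were joined to 21755 protein-coding genes of GENCODE M21 by an overlap of at least 1 bp. TSSs and exons came from basic transcripts, gene ends from the whole gene. Runs join peaks at gaps of up to 2 kb. Sequence and 300 bp promoter windows came from RefSeq (GRCm38.p6). Genes named were all 9 members, genes of the other POU and partner lists, of which some are not reported here, and genes that overlap a member or start within 1 kb of a member's peak (Gm17976, D930028M14Rik, Mir6537 and Gm27209 overlap members without a value of their own), with the genes of the comparison lists. The members and lists were chosen with earlier results of these data known. Counting and motif search were tested on simulated data. Python 3.11.15, scipy 1.17.1 and matplotlib 3.10.9 were used. Alternatives were other flanks, TSS distances, annotations, peak parts and word mismatches.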

Additional observations from a re-analysis of the deposited data

How the results depend on the processing

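The number of members with a peak in the gene body (6) was the same when a peak was counted by its centre and with starts read as counted from 1. The use of all annotated transcripts could not change it, because gene ends came from the whole gene. The total of 61 peaks follows the flank and was 30 with 10 kb, 105 with 100 kb and 16 in the gene bodies alone, and the median per member of 4 became 1 with 10 kb and 1 in gene bodies. The median of 3 within 50 kb of the outer TSS was 1 within 10 kb and 8 within 200 kb. The share of peaks within 1 kb of a protein-coding TSS, counted by overlap, was 32.8%, and 26.2% to 42.6% under the alternatives. Mean GC content was 59.3% in the central 200 bp, 54.9% in peaks farther than 1 kb from a TSS and 64% in gene bodies. The octamer share was 0 in the central 200 bp, 0 in gene bodies and 16.4% with up to 1 mismatch. Peaks nearest to the TSS of their own member numbered 27, and 34 with all annotated transcripts, an alternative chosen after seeing the data. No paired analysis was possible because both replicates were merged in 1 list. For the same reason no replicate could be left out, and no stricter threshold was tried because the list has no score. The list holds no reads per peak, so how far depth limits a single call was not tested.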

Other observations

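The peak-free stretch around Pou6f1 (chr15:100495548-100757348, 262 kb) held the outer TSSs of 7 protein-coding genes, Bin2, Cela1, Dazap2, Galnt6, Pou6f1, Smagp and Tfcp2. These names were chosen after the values were seen. GC- and CpG-rich promoters belonged to 5 of them, Dazap2, Galnt6, Pou6f1, Smagp and Tfcp2, while 84.9% of such windows had a peak over all chromosomes. Among the 55306 stretches between neighbouring peaks, 6 held as many rich promoters, 187 as many outer TSSs and 1599 were as long, this one counted in each. Whether peaks are missing from the list here or were not called was not tested.

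The noncoding genes with a start within 1 kb of the centre of a peak assigned to a POU gene were Gm30731 (3 bp, at Pou3f2), 4933430L12Rik (48 bp, in the window of Pou2f2), Gm26665 (156 bp, at Pou2f1), Pantr1 (438 bp, at Pou3f3), Gm2164 (443 bp, at Pou3f1) and AC122898.1 (773 bp, at Pou3f3), each with its smallest distance and found as the nearest noncoding start. The peak near Pantr1 was the one 1.4 kb upstream of Pou3f3.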
